A study of Mus musculus with 54 samples.

Results

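Collagen genes were taken as every gene of the E16.5 epithelium and PDGFRA table whose symbol reads Col, digits, a, digits. The rule found 43 genes among the 16901 genes of that table and 17393 gene IDs in the 4 tables of the series. The same 43 genes were listed in the CD29-HIGH table, 36 in the Wnt secretion inhibitor table and 32 in the E13.5 table. By class they comprised 11 fibrillar chains, 6 chains of the basement membrane type IV, 6 chains of type VI, 9 fibril-associated chains, 4 transmembrane chains, 2 multiplexins, 2 short chain network chains, 1 anchoring fibril chain and 2 others.

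The study sorted cells from regions of the fetal mouse small intestine by flow cytometry after collagenase digestion and sequenced total RNA, giving 54 libraries in 20 groups. At E16.5, C57Bl/6J fetuses without treatment gave PDGFRA-HIGH cells (PDGFRA high, CD29 medium), CD29-HIGH cells (PDGFRA medium, CD29 high), EpCAM+ epithelium and PDGFRA-MED cells (PDGFRA medium, CD29 medium, used by the study as bulk mesenchyme), each from proximal, mid and distal intestine in 3 libraries; of the 5 sections into which the intestine was cut, 3 were used. At E13.5, untreated EpCAM+ epithelium was sorted from distal and proximal intestine in 3 libraries each. Top.CFP dams were also given LGK974, which blocks the acyltransferase PORCN and so the secretion of Wnt ligands, in 2 daily doses starting on E12.5, and at E16.5 EpCAM+ epithelium was sorted from the 3 regions in 3 libraries each. Its controls were the 3 untreated C57Bl/6J epithelial libraries and 1 vehicle-treated Top.CFP library of each region, so that strain and treatment can be told apart only through 1 vehicle library a region. All gates were negative for DAPI, CD31 (endothelium) and CD45 (blood cells), and the 3 mesenchymal gates were also negative for EpCAM. The labels do not give the dam of each library, so p-values measure the spread between these libraries.

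Values are the RPKM that the authors deposited, read counts scaled to the length of the gene model and to library size, so that levels can be compared between genes. Libraries held 15072991 to 26658039 reads on genes. The genes used in the gates followed the labels with 1 exception in RNA: Pdgfra stood at 0.68 to 8.98 RPKM in CD29-HIGH libraries, gated as PDGFRA medium, against 62.9 to 103 RPKM in PDGFRA-MED libraries of the same table. Smooth muscle markers (9 of 9 genes in the table) summed to 15686 to 27362 RPKM in CD29-HIGH libraries, against 281 to 413 RPKM in PDGFRA-MED libraries. Blood cell markers reached a sum of 8607 RPKM in 1 PDGFRA-MED proximal library. Proximal EpCAM libraries of untreated fetuses carried pancreatic enzyme transcripts, with Cpa1 (carboxypeptidase) at 97.5, 212 and 100 RPKM, against 0.35, 0.06 and 0 RPKM in distal ones.

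Collagens are trimers of chains, encoded by one or more genes, that wind into a triple helix. Types I, III and V form the banded fibrils that give stroma its tensile strength, type IV builds the sheet-like network of basement membranes, and type VI forms beaded microfilaments between cells and fibrils. Type IV comes as the ubiquitous pairing of the alpha1 and alpha2 chains and as more restricted assemblies with alpha3 to alpha6 chains, and the genes lie head to head in pairs. In the gut, the basement membrane under the epithelium receives chains from the mesenchyme as well as from epithelial cells.

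Sequences upstream of 5 genes are shown because the 4 type IV genes form the 2 head-to-head pairs whose levels separate the sorts and because Col6a4 had the highest collagen level of PDGFRA-HIGH cells. Each run is the RefSeq window of 300 bases (250 before and 50 from the annotated start, GRCm38.p6), printed on the strand of the gene. Capitals mark the GC box GGGCGG (bound by Sp factors) and the CCAAT box CCAAT, each searched on both strands, so that CCGCCC and ATTGG are marked too; the TATA box TATAAA was searched as well and is in none of these 5.
Col4a5, chrX:141475169-141475468, plus strand: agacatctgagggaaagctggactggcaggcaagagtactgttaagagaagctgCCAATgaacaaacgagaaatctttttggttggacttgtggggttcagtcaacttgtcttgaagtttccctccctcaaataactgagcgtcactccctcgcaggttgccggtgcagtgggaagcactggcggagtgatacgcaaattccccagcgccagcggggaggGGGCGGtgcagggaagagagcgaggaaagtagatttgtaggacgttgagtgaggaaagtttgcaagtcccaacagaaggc
Col4a6, chrX:141474027-141474326, minus strand: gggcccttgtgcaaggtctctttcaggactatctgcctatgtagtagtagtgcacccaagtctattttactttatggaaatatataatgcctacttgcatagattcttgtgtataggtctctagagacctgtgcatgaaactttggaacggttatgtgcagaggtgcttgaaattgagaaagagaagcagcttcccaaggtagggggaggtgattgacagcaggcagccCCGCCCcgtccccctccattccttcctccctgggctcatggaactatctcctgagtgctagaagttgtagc
Col4a1, chr8:11312777-11313076, minus strand: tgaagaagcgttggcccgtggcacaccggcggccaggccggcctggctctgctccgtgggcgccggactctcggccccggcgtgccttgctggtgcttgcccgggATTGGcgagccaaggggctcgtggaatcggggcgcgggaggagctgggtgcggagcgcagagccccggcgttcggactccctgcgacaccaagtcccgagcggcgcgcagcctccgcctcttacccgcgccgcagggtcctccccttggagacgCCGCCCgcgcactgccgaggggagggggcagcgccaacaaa
Col4a2, chr8:11312555-11312854, plus strand: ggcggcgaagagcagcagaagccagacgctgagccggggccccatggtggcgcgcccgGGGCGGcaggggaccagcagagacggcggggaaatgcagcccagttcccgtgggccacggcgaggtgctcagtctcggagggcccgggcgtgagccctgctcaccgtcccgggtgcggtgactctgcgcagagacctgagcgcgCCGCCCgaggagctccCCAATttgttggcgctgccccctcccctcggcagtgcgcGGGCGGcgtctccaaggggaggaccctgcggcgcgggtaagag
Col6a4, chr9:106096642-106096941, minus strand: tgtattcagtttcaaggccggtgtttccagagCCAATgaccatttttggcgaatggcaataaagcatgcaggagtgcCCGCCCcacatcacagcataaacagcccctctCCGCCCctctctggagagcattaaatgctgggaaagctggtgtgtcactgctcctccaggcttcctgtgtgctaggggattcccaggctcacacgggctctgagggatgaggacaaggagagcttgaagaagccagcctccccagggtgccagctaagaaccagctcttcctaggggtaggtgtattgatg
The annotated starts of Col4a1 and Col4a2 lay 21 bases apart and their windows shared 78 bases, while those of Col4a5 and Col4a6 lay 1343 bases apart with no base shared. Windows were found for 34 collagen genes (37 windows). A GC box stood in 23 of these windows (62.2%), against 35.7% of all 32851 mouse windows. A CCAAT box stood in 13 collagen windows (35.1%), against 37.4% of all windows, and a TATAAA in 4 (10.8%), against 13.6%. A match is a description of the letters only. On the same build, Col4a5 spans chrX:141475370-141689236, Col4a6 chrX:141165403-141474095, Col4a1 chr8:11198423-11312889, Col4a2 chr8:11312805-11449287 and Col6a4 chr9:105990318-106096828.

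Collagen RNA was a large part of mesenchymal RNA, and its make-up differed between the sorts. Collagen genes took 5.39%, 5.71% and 5.88% of reads in proximal, mid and distal PDGFRA-HIGH libraries (means of 3), 2.23%, 2.21% and 2.05% in CD29-HIGH libraries, and 6.05%, 6.60% and 5.74% in PDGFRA-MED libraries. Epithelial libraries had 0.0354%, 0.0353% and 0.0392%. The totals of PDGFRA-HIGH and PDGFRA-MED libraries were thus alike, but the classes were not. Type VI chains took 2.74%, 2.85% and 2.65% of reads in PDGFRA-HIGH libraries and 0.922%, 1.13% and 0.99% in PDGFRA-MED libraries. Fibrillar chains took 1.51%, 1.64% and 2.02% in PDGFRA-HIGH libraries and 4.29%, 4.62% and 3.96% in PDGFRA-MED libraries. Type IV chains took 0.715%, 0.824% and 0.761% in PDGFRA-HIGH libraries and 0.31%, 0.314% and 0.259% in PDGFRA-MED libraries.

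**Figure D1:**
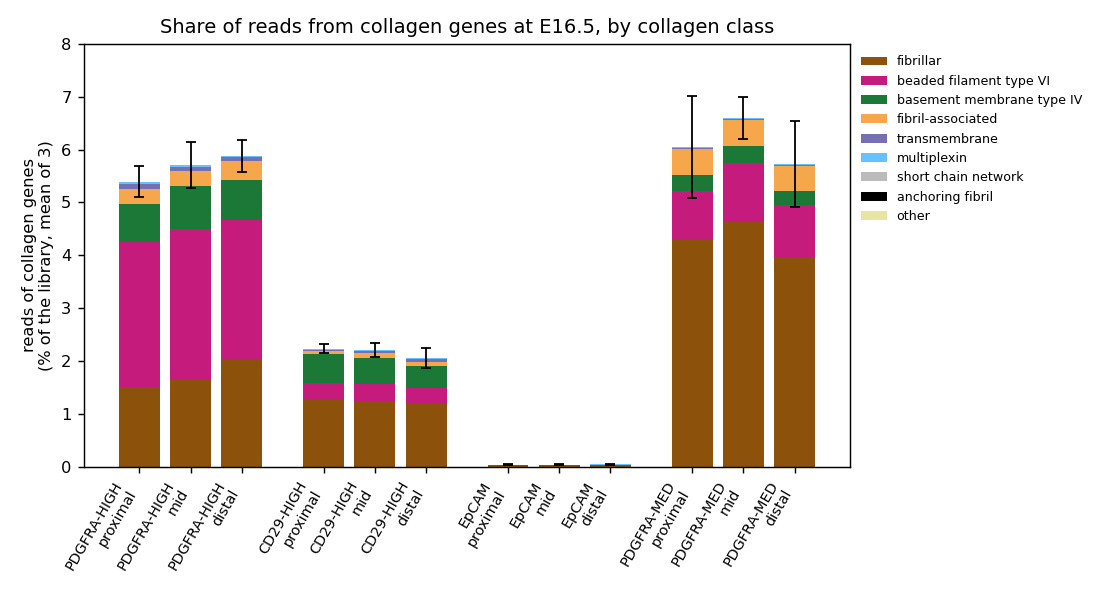
Share of each library's reads that fell on collagen genes (y axis, percent) in the 4 E16.5 sorts by region, stacked by collagen class. Bars are means of 3 libraries and whiskers the SD of the total. Type VI makes up the largest block in PDGFRA-HIGH libraries (2.65% to 2.85% of reads), and fibrillar chains do in PDGFRA-MED libraries (3.96% to 4.62%).

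The order of single genes differed too. The highest collagen levels of PDGFRA-HIGH libraries were those of Col6a4 (1746 ± 143 RPKM, SD, n = 9), Col6a2 (1327 RPKM), Col6a1 (1143 RPKM), Col1a2 (1139 RPKM), Col3a1 (980 RPKM) and Col1a1 (713 RPKM). Neighbours in this list from Col6a2 to Col1a1 overlapped within their SD. The lowest Col6a4 value, 1566 RPKM, lay just under the highest Col6a2 value, 1583 RPKM. CD29-HIGH libraries were led by Col3a1 (1055 ± 61.0 RPKM), Col1a1 (829 RPKM), Col4a1 (529 RPKM) and Col4a2 (275 RPKM). PDGFRA-MED libraries were led by Col3a1 (2884 ± 470 RPKM) and Col1a1 (2769 ± 471 RPKM), which overlapped, followed by Col1a2 (1243 RPKM), Col6a2 (780 RPKM) and Col6a1 (586 RPKM). In the epithelium the highest was Col3a1, at 11.6 ± 4.66 RPKM.

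The first question was which collagen genes set the subepithelial PDGFRA-HIGH cells apart from PDGFRA-MED cells. Differences are of log2(RPKM + 0.5) and understate those of low genes. A gene was called when limma's test (treat) against a log2 difference of 0.5 gave an adjusted p under 0.05 in the same direction in each of the 3 regions; differences and adjusted p-values printed for a sort are those of the mean over regions. Of the 38 collagen genes that passed the filter on low values, 8 were called higher and 8 lower in PDGFRA-HIGH cells, against 7.79% and 8.04% of all 14732 genes tested (15.8% in either direction). The median difference was 0.57 over these 38 genes and -0.02 over all genes. In bulk samples such as these, fewer cells of a type and less RNA per cell cannot be told apart.

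Type IV chains made up the top of the list. Col4a5, the alpha5 chain, had 244, 303 and 352 RPKM as lowest, median and highest of 9 PDGFRA-HIGH libraries, against 3.55, 6.47 and 12.0 RPKM in PDGFRA-MED libraries, a difference of 5.46 ± 0.09 (SE; limma, adjusted p = 1.2e-20). Col4a6, the alpha6 chain, had 60.9, 81.3 and 94.8 RPKM in PDGFRA-HIGH libraries, against 0.63, 1.84 and 2.78 RPKM in PDGFRA-MED libraries (difference 5.43 ± 0.11, limma, adjusted p = 4e-19). The libraries of the sorts were far apart for both genes. The ubiquitous chains were shared by the sorts and differed less: Col4a2 averaged 302 ± 36.1 RPKM in PDGFRA-HIGH and 131 ± 18.3 RPKM in PDGFRA-MED libraries (difference 1.20 ± 0.10, called), and Col4a1 569 ± 62.6 RPKM and 283 ± 43.0 RPKM (difference 1.01 ± 0.08, not called in each region). The PDGFRA-HIGH and PDGFRA-MED libraries did not overlap for either gene. The Col4a2 call was lost in 6 of 25 alternatives, among them the fit without the replicate block and that without any 1 proximal PDGFRA-HIGH library, with differences of at least 1.16 throughout.

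The ratio of Col4a5 to Col4a6 was 3.6, 3.55 and 3.79 in proximal, mid and distal PDGFRA-HIGH libraries, against 4.81, 5.25 and 4.14 in PDGFRA-MED libraries, where single libraries ranged between 3.52 and 6.15 and overlapped the PDGFRA-HIGH ones. CD29-HIGH libraries had ratios of 8.40, 8.98 and 6.08. The ratio of Col4a1 to Col4a2 was 1.92, 1.88 and 1.85 in PDGFRA-HIGH libraries, against 2.18, 2.21 and 2.06 in PDGFRA-MED libraries. The ratio of Col4a5 to Col4a1 was 0.549, 0.511 and 0.481 in PDGFRA-HIGH libraries, against 0.0163, 0.0164 and 0.0406 in PDGFRA-MED libraries. The remaining pair, Col4a3 and Col4a4, was low: Col4a3 ranged from 0.30 to 6.82 RPKM over PDGFRA-HIGH libraries, against 0.005 to 0.055 RPKM over PDGFRA-MED libraries, and Col4a4 from 0.27 to 6.45 RPKM, against 0.006 to 0.14 RPKM. Neither of the 2 was called in each region, and both were with a smaller pseudocount (0.1) and with voom on reads.

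Type VI chains followed. Col6a4, one of the additional alpha3-like chains of type VI, had 1566, 1678 and 1992 RPKM in PDGFRA-HIGH libraries, against 110, 189 and 266 RPKM in PDGFRA-MED libraries (difference 3.21 ± 0.14, limma, adjusted p = 5.7e-13). The core chains differed by less: Col6a1 averaged 1143 ± 106 RPKM in PDGFRA-HIGH and 586 ± 84.3 RPKM in PDGFRA-MED libraries (0.97 ± 0.14), Col6a2 1327 and 780 RPKM (0.78 ± 0.12), and Col6a3 582 ± 72.1 RPKM and 225 ± 55.5 RPKM (1.40 ± 0.13). None of these 3 core chains was called in each region, although no PDGFRA-HIGH library overlapped a PDGFRA-MED one for any of the 3. For Col6a5 and Col6a6 the libraries of the sorts overlapped.

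**Figure D2:**
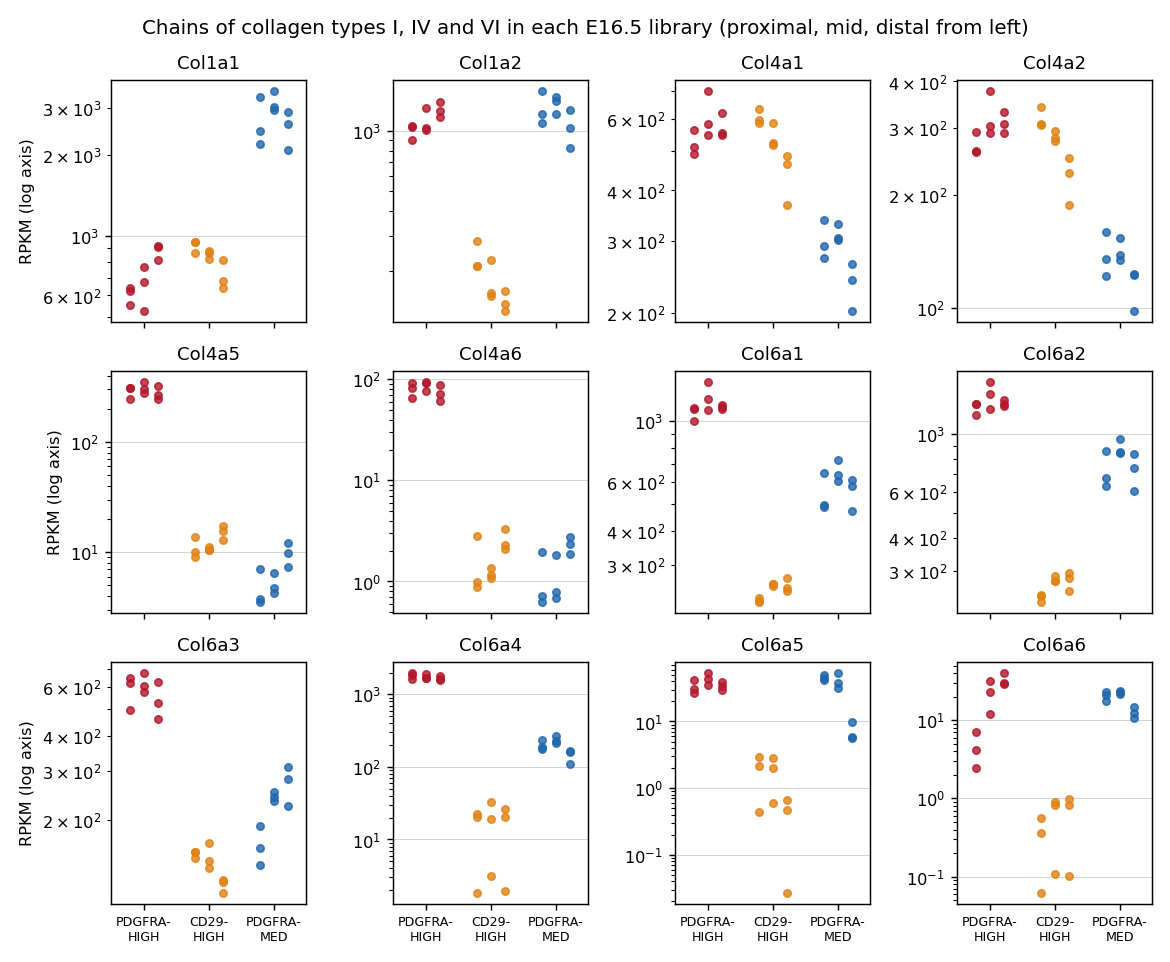
RPKM (log axis) of the type I, IV and VI chains in each E16.5 library of the 3 mesenchymal sorts; within a sort, points run from proximal through mid to distal. Col4a5 and Col4a6 lie far above the other sorts in PDGFRA-HIGH cells, Col1a2 overlaps between PDGFRA-HIGH and PDGFRA-MED cells while Col1a1 does not, and 1 CD29-HIGH library of each region lies low for Col6a4, Col6a5 and Col6a6.

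The other collagens higher in PDGFRA-HIGH cells were 2 transmembrane chains, 1 fibrillar and 1 fibril-associated chain. Col23a1, a transmembrane collagen, averaged 142 ± 16.5 RPKM in PDGFRA-HIGH and 16.8 ± 3.32 RPKM in PDGFRA-MED libraries (3.06 ± 0.07). Col13a1, another transmembrane collagen found at cell adhesions, averaged 51.4 ± 19.3 and 10.6 ± 2.48 RPKM (2.17 ± 0.06). Col24a1, a minor fibrillar chain, averaged 65.2 ± 16.6 and 10.5 ± 2.42 RPKM (2.57 ± 0.08), and Col12a1, which decorates fibrils of type I, 236 ± 41.6 and 68.8 ± 15.5 RPKM (1.78 ± 0.10). For each of these 4 the PDGFRA-HIGH and PDGFRA-MED libraries did not overlap.

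Lower in PDGFRA-HIGH cells were mostly fibrillar and fibril-associated chains. Col14a1, a fibril-associated collagen, had 11.1, 25.6 and 51.2 RPKM as lowest, median and highest of PDGFRA-HIGH libraries, against 331, 443 and 617 RPKM in PDGFRA-MED libraries (difference -4.20 ± 0.17, limma, adjusted p = 4e-13). Col16a1, of the same class, averaged 30.9 ± 4.77 RPKM in PDGFRA-HIGH and 145 ± 23.6 RPKM in PDGFRA-MED libraries (-2.21 ± 0.07). Among fibrillar chains, Col1a1 had 527, 671 and 917 RPKM in PDGFRA-HIGH libraries, against 2084, 2884 and 3468 RPKM in PDGFRA-MED libraries (-1.96 ± 0.13, limma, adjusted p = 4.7e-09). Col5a2 (-1.65 ± 0.10) and Col5a3 (-2.52 ± 0.13) fell as well, and Col3a1 differed by -1.56 ± 0.14 without being called in each region. The short chains Col8a2 (-3.16 ± 0.13) and Col8a1 (-1.53 ± 0.13) and the Schwann cell collagen Col28a1 (-3.11 ± 0.06) were low in both sorts, at most 12.2 RPKM. Enteric neuron and glia markers (8 of 8 in the table) summed to 1.53 to 5.42 RPKM in PDGFRA-HIGH libraries, against 4.95 to 72.1 RPKM in PDGFRA-MED libraries, and their part in the Col28a1 difference was not tested.

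The chains of type I did not move together. Col1a2 had 906, 1061 and 1411 RPKM as lowest, median and highest of PDGFRA-HIGH libraries, against 826, 1224 and 1599 RPKM in PDGFRA-MED libraries, and differed by -0.11 ± 0.13 (limma, adjusted p = 1). Type I collagen is commonly built of alpha1 and alpha2 chains together. The RPKM ratio of Col1a1 to Col1a2 was 0.606 ± 0.094, 0.583 ± 0.065 and 0.689 ± 0.10 in proximal, mid and distal PDGFRA-HIGH libraries (SD, n = 3 each), against 2.02 ± 0.030, 2.29 ± 0.19 and 2.43 ± 0.14 in PDGFRA-MED libraries. The highest PDGFRA-HIGH ratio, 0.775, lay below the lowest PDGFRA-MED ratio, 2.0. Type V showed the opposite shift: the ratio of Col5a1 to Col5a2 was 4.84, 4.42 and 3.94 in PDGFRA-HIGH libraries, against 1.77, 1.99 and 1.84 in PDGFRA-MED libraries.

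Not tested, because they had not reached 1 RPKM in at least 3 libraries, were Col2a1, Col9a1, Col17a1, Col19a1 and Col20a1. The remaining tested genes, Col5a1, Col7a1, Col9a2, Col9a3, Col11a1, Col11a2, Col15a1, Col18a1, Col22a1, Col25a1, Col26a1 and Col27a1, had mean differences between -1.0 (Col9a3) and 0.78 (Col25a1) and were not called in each region. Endothelial markers (8 of 9 in the table), although CD31+ cells were gated out, summed to 29.3 to 57.2 RPKM in PDGFRA-HIGH libraries, against 3.95 to 8.80 RPKM in PDGFRA-MED libraries. The sum came from Erg and Plvap, while the defining genes Pecam1 and Cdh5 were at most 0.54 and 0.71 RPKM in PDGFRA-HIGH libraries.

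Genes that make, process and bind collagen were taken from lists of 4 steps. All the counts stand against the 7.79% higher and 8.04% lower of all genes. Of 13 tested genes for processing and cross-linking of the secreted chains, 2 rose and 8 fell in PDGFRA-HIGH cells, with a median difference of -1.29 against -0.02 over all genes. The genes that fell included the cross-linking oxidases Lox (-4.65 ± 0.15), Loxl1 (-2.62 ± 0.08) and Loxl4 (-2.41 ± 0.08) and the fibril-binding Fmod (-2.95 ± 0.09), and those that rose were the proteases Tll1 (3.37 ± 0.08) and Adamts3 (2.39 ± 0.05). Of 19 genes for modification and folding inside the cell, 2 rose and 2 fell, a share near that of all genes. P3h2, a prolyl 3-hydroxylase that acts on type IV collagen, rose by 2.52 ± 0.09, the lysyl hydroxylase Plod1 rose by 1.49 ± 0.07, and the transcription factor Creb3l1, which drives type I collagen genes, fell by 1.62. Of 10 genes for breakdown, the gelatinases Mmp9 (2.59 ± 0.17) and Mmp2 (1.22 ± 0.10) rose and Fap (-4.08 ± 0.11) fell. Of 9 receptors, the collagen-binding integrin chains Itga2 (4.38 ± 0.07), Itga11 (2.49 ± 0.10) and Itga1 (1.82 ± 0.05) rose and none fell.

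The CD29-HIGH sort was compared with the same PDGFRA-MED libraries, so the 2 comparisons share their controls. Of 36 collagen genes tested, 5 rose and 17 fell in CD29-HIGH cells, against 9.52% and 7.09% of all 13334 genes (16.6% in either direction). The median difference was -1.11 over these 36 genes and 0.01 over all genes. Not tested were Col2a1, Col4a3, Col4a4, Col11a2, Col17a1, Col19a1 and Col20a1.

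Of type IV only the ubiquitous pair rose among the 4 chains tested. Col4a1 had 369, 522 and 635 RPKM as lowest, median and highest of CD29-HIGH libraries and averaged 273 RPKM in PDGFRA-MED libraries of that table (difference 0.95 ± 0.05, limma, adjusted p = 6.6e-07; not called in each region after quantile normalisation). Col4a2 averaged 275 ± 46.7 RPKM in CD29-HIGH and 127 RPKM in PDGFRA-MED libraries (1.11 ± 0.04). Col4a5, at 9.02 to 17.3 RPKM in CD29-HIGH libraries, overlapped PDGFRA-MED libraries and was not called in each region. The other genes that rose were the short chain Col8a1, a component of vessel walls (9.22 ± 4.49 RPKM in CD29-HIGH and 1.45 ± 0.63 RPKM in PDGFRA-MED libraries, 2.22 ± 0.10), the fibrillar Col27a1 (58.6 ± 7.97 and 13.5 ± 1.58 RPKM, 2.07 ± 0.04) and the transmembrane Col23a1 (63.4 ± 32.5 and 16.2 ± 3.19 RPKM, 1.78 ± 0.06).

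Both type I chains fell, and unevenly. Col1a2 had 126, 157 and 283 RPKM as lowest, median and highest of CD29-HIGH libraries and averaged 1197 RPKM in PDGFRA-MED libraries (difference -2.72 ± 0.08, limma, adjusted p = 1e-12). Col1a1 had 639, 866 and 951 RPKM and averaged 2666 RPKM in PDGFRA-MED libraries (-1.68 ± 0.06). The ratio of Col1a1 to Col1a2 was therefore 3.98 ± 0.58, 4.98 ± 0.98 and 5.11 ± 0.81 in proximal, mid and distal CD29-HIGH libraries, above the 2.02, 2.29 and 2.43 of PDGFRA-MED libraries. The lowest CD29-HIGH ratio, 3.34, exceeded the highest PDGFRA-MED ratio, 2.52. Col14a1 (-5.49 ± 0.17), Col22a1 (-3.05 ± 0.13), Col5a3 (-2.74 ± 0.12), Col24a1 (-2.63 ± 0.10), Col16a1 (-2.13 ± 0.06), Col3a1 (-1.38 ± 0.06) and Col5a1 (-1.30 ± 0.06) also fell, as did Col6a1, Col6a2, Col7a1, Col8a2 and Col26a1 by between 1.19 and 1.52 on the log2 scale. The other 14 genes tested were not called in each region, and their mean differences ran between -1.46 (Col28a1) and 1.54 (Col15a1).

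The 3 additional type VI chains were low in CD29-HIGH cells and lowest in replicate 2 of each region. Col6a4 had 22.3, 1.84 and 20.1 RPKM in proximal replicates 1 to 3 of CD29-HIGH, 19.2, 3.12 and 32.9 RPKM in mid, and 20.3, 1.92 and 26.4 RPKM in distal ones, and averaged 186 ± 44.3 RPKM in PDGFRA-MED libraries (difference -3.98 ± 0.50, limma, adjusted p = 8.3e-05). Col6a5 (-3.92 ± 0.18) and Col6a6 (-4.22 ± 0.17) had the same low replicate. Pdgfra moved with them, at 3.81, 0.68 and 4.14 RPKM in proximal, 4.56, 1.94 and 7.79 RPKM in mid, and 7.83, 3.39 and 8.98 RPKM in distal CD29-HIGH replicates 1 to 3. Whether cells of another gate contributed to replicates 1 and 3 was not tested. The Col6a4 call was lost in the distal region without distal replicate 2 of either sort.

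**Figure D3:**
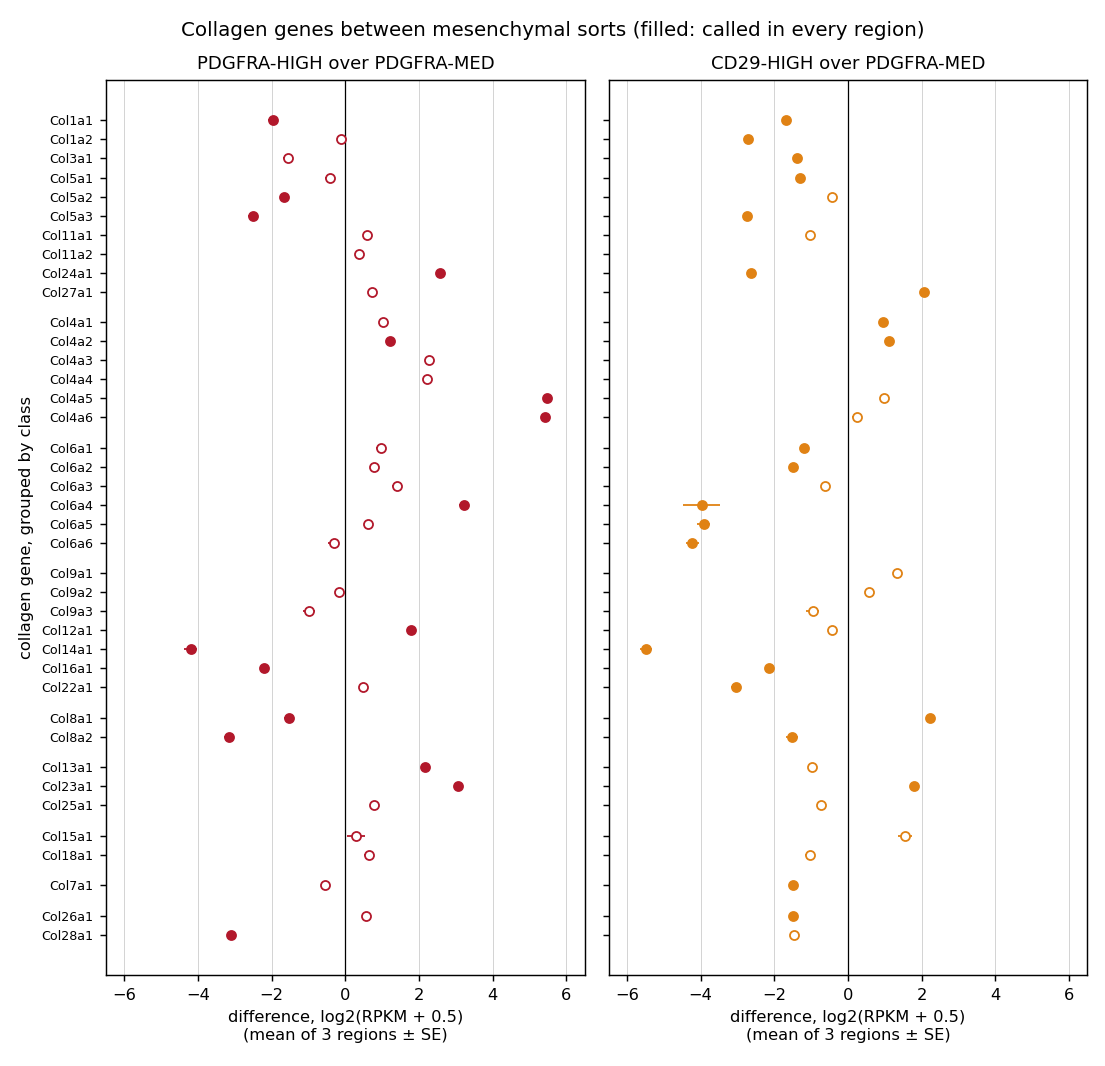
Difference of log2(RPKM + 0.5) with its SE (x axis; SEs are mostly smaller than the symbols) for each tested collagen gene, grouped by class on the y axis, in PDGFRA-HIGH (left) and CD29-HIGH (right) over PDGFRA-MED libraries. Filled symbols were called in each region, 16 of 38 on the left and 22 of 36 on the right, and Col4a5 and Col4a6 lie farthest to the right in the PDGFRA-HIGH panel.

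Against 9.52% higher and 7.09% lower of all genes, 8 of 13 genes for processing and cross-linking fell in CD29-HIGH cells and none rose, with Lox (-3.47 ± 0.15), Pcolce, an enhancer of procollagen cleavage (-3.47 ± 0.15), and Adamts2 (-2.29 ± 0.12) at the lower end. Of 19 genes for modification and folding, 7 fell, including Creb3l1 (-4.55 ± 0.13), and 1 rose, P3h2 (2.69 ± 0.08). Among 9 genes for breakdown, Fap (-4.02 ± 0.11), Mmp2 (-4.00 ± 0.23), Mrc2 (-2.06 ± 0.06) and Ctsk (-1.91 ± 0.09) fell and the inhibitor Timp3 (1.85 ± 0.04) rose. Of 8 receptors, Itga1 (by 3.0 ± 0.05) and Ddr2 (0.96 ± 0.04) rose and Itga11 (-2.61 ± 0.15) fell. Itgb1 encodes CD29 itself and was used in the gate.

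Regional differences were then examined within each sort, comparing distal with proximal intestine. In PDGFRA-HIGH cells 4 collagen genes rose and 4 fell of 38 tested, against 1.17% and 1.3% of all genes. In PDGFRA-MED cells 1 gene fell, against 0.563% of all genes, and none rose (0.305%; by limma 4 collagen genes reached an unadjusted p under 0.05 in either direction, and voom called 1 in all).

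Col18a1, a basement membrane proteoglycan whose end fragment is endostatin, had 3.26, 3.68 and 7.67 RPKM in distal PDGFRA-HIGH libraries, against 59.2, 62.5 and 78.6 RPKM in proximal ones (difference -3.73 ± 0.24, limma, adjusted p = 1.5e-08). Mid libraries had 32.9, 40.5 and 53.5 RPKM and lay between. In PDGFRA-MED cells the same gene had 16.7, 8.40 and 12.6 RPKM in distal and 18.3, 13.1 and 20.7 RPKM in proximal libraries, which overlapped. The distal change differed between the sorts by -3.24 ± 0.33 (limma interaction, adjusted p = 6.6e-05). The other multiplexin, Col15a1, went the other way, with 11.6, 12.7 and 15.3 RPKM in distal and 2.64, 2.79 and 2.39 RPKM in proximal PDGFRA-HIGH libraries (2.13 ± 0.43, limma, adjusted p = 0.032). Its call was lost without any 1 of the 6 libraries compared, although the values did not overlap, and the difference was then at least 1.90. In PDGFRA-MED cells Col15a1 had 2.42, 2.92 and 4.76 RPKM in distal and 5.69, 6.29 and 23.1 RPKM in proximal libraries, which was not called. The difference between the sorts in distal change (3.55) takes in both.

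Of the additional type VI chains, Col6a5 and Col6a6 changed with region differently in the 2 sorts, and Col6a4 was not called between regions in either. Col6a6 had 40.5, 29.0 and 30.1 RPKM in distal and 7.10, 4.12 and 2.45 RPKM in proximal PDGFRA-HIGH libraries (2.83 ± 0.27, limma, adjusted p = 5e-06). In PDGFRA-MED cells Col6a6 had 10.6 to 14.9 RPKM in distal and 17.7 to 23.0 RPKM in proximal libraries, a difference that was not called, and the distal change differed between the sorts by 3.51 ± 0.38 (limma interaction, adjusted p = 7.4e-05). Col6a5 fell in PDGFRA-MED cells, with 5.71, 5.94 and 9.70 RPKM in distal and 44.4, 41.7 and 49.5 RPKM in proximal libraries (-2.62 ± 0.17, limma, adjusted p = 7.6e-08). Mid PDGFRA-MED libraries, at 38.2, 32.1 and 53.9 RPKM, were like the proximal ones. PDGFRA-HIGH cells held Col6a5 at 26.8 to 53.2 RPKM in all 3 regions (interaction 2.69 ± 0.25). The core chains Col6a1, Col6a2 and Col6a3 were not called between regions in either sort.

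Other PDGFRA-HIGH changes were smaller. Col13a1 had 32.3, 32.7 and 28.5 RPKM in distal and 72.7, 80.9 and 70.2 RPKM in proximal libraries (-1.25 ± 0.10). Col4a3 and Col4a4 each fell by 1.80 on the log2 scale, with Col4a3 at 0.30 to 0.96 RPKM in distal and 2.59 to 3.6 RPKM in proximal libraries. The fibril-associated Col9a2 (1.37 ± 0.18; 18.3 ± 3.0 RPKM in distal and 6.75 ± 0.80 RPKM in proximal libraries) and the transmembrane Col25a1 (1.19 ± 0.16) rose. The distal change of Col13a1 (-1.86), Col4a3 (-1.75), Col4a4 (-1.68), Col24a1 (-1.34) and Col15a1 (3.55) also differed between PDGFRA-HIGH and PDGFRA-MED cells, making 8 of 38 collagen genes against 1.27% of all genes. The Col24a1 call was lost in 8 of 19 alternatives. Of the collagen machinery, 1 of 19 modification genes (P4ha2, 0.94 ± 0.12), 2 of 13 processing genes (Lox, 1.52 ± 0.27, and Loxl1, 0.99 ± 0.14), 1 of 10 breakdown genes (Fap, 1.44 ± 0.19) and 0 of 9 receptors rose in distal PDGFRA-HIGH cells, against 1.17% of all genes, and none fell (1.3%).

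Mid libraries placed these changes along the intestine. Between mid and proximal PDGFRA-HIGH libraries Col6a6 rose (2.16 ± 0.27), 1 of 38 genes against 0.292% of all genes. Between distal and mid ones Col18a1 (-3.06 ± 0.24), Col4a4 (-2.40 ± 0.17) and Col4a3 (-2.29 ± 0.18) fell, 3 of 38 against 0.496%. In PDGFRA-MED cells Col6a5 fell between distal and mid libraries (-2.46 ± 0.17), 1 of 38 against 0.143%, and no collagen gene was called between mid and proximal ones by limma or voom (0.129% of all genes; 0 at an unadjusted p under 0.05).

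Several genes that separate the sorts moved with region in PDGFRA-HIGH libraries. Pdgfra itself had 587, 602 and 801 RPKM in distal and 937, 1088 and 1187 RPKM in proximal PDGFRA-HIGH libraries. Lum had 233, 203 and 188 RPKM in distal and 65.6, 46.5 and 37.2 RPKM in proximal ones, and PDGFRA-MED libraries held 192 to 325 RPKM. Plvap averaged 2.64 RPKM in distal and 15.2 RPKM in proximal PDGFRA-HIGH libraries. Distal PDGFRA-HIGH Col18a1 values lay below every PDGFRA-MED library (8.40 to 20.7 RPKM). Those of Col6a6 and Col25a1 lay above every PDGFRA-MED library (10.6 to 23.7 and 0.91 to 2.91 RPKM). Distal Col13a1 values (28.5 to 32.7 RPKM) lay between proximal PDGFRA-HIGH and PDGFRA-MED ones (6.69 to 14.3 RPKM). Those of Col4a3 and Col4a4 did too. Distal Col15a1 (11.6 to 15.3 RPKM) and Col9a2 (15.4 to 21.3 RPKM) overlapped PDGFRA-MED libraries (2.30 to 23.1 and 9.40 to 16.8 RPKM). The part of other cells in the regional collagen differences was not tested.

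In CD29-HIGH cells 1 collagen gene rose and 3 fell distally of 36 tested, against 0.87% and 1.39% of all genes. Col23a1 had 88.2, 116 and 100 RPKM in distal and 27.8, 34.2 and 25.6 RPKM in proximal libraries (1.78 ± 0.10, limma, adjusted p = 8.1e-07), with mid libraries between at 49.8 to 65.0 RPKM. It also rose between mid and proximal libraries (1.02 ± 0.10), 1 of 36 genes against 0.277% of all genes, while none was called between distal and mid ones by limma (0.18%; 5 at an unadjusted p under 0.05, and 1 by voom). Its distal change exceeded that of PDGFRA-MED cells by 1.27 ± 0.14 (limma interaction, adjusted p = 0.0091; not called without the replicate block). Col8a1 (-1.58 ± 0.18; 4.29 ± 1.32 RPKM in distal and 13.6 ± 1.85 RPKM in proximal libraries), Col18a1 (-1.57 ± 0.25) and Col28a1 (-1.19 ± 0.19) fell, and none of these 3 was called without the replicate block. Of 13 alternatives, 1 lost the Col8a1 call, 7 the Col18a1 call and 10 the Col28a1 call. Between CD29-HIGH and PDGFRA-MED cells the distal change also differed for Col28a1 (-1.86 ± 0.26) and Col6a3 (-1.12 ± 0.14), so that 3 of 36 collagen genes were called against 0.78% of all genes. The Col6a3 call was lost in 13 of 19 alternatives, among them the fit without the replicate block and those without any 1 of the distal or proximal CD29-HIGH libraries, and the Col28a1 call in 4 of 19, each without 1 library. Smooth muscle markers summed to 17684 RPKM in distal and 25270 RPKM in proximal CD29-HIGH libraries on average, and their part in these differences was not tested.

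In the epithelium collagen RNA was scarce. Of 38 collagen genes tested, 34 were called lower in EpCAM than in PDGFRA-MED cells, against 21.3% of all genes, and 32 lower than in PDGFRA-HIGH cells, against 23.6%. None was higher in either comparison by limma or voom (21.4% and 25.5% of all genes), and 34 and 33 of the 38 reached an unadjusted p under 0.05. Stromal transcripts in epithelial libraries give a scale for these levels. Of 8 fibroblast markers, 7 had an epithelial mean under 1% of the PDGFRA-MED mean, among them Ogn (0.287%), Dcn (0.323%), Postn (0.439%) and Pdgfra (0.957%), and Fbln1 stood at 22.0%. Of 34 collagen genes with a PDGFRA-MED mean of at least 1 RPKM, 18 were under 1%, among them Col14a1 (0.348%), Col1a1 (0.387%), Col1a2 (0.389%) and Col3a1 (0.403%). A further 11 were between 1% and 10%, with Col4a1 at 1.74%, and 5 were at 10% or more: Col8a1 (13.1%), Col4a5 (14.5%), the anchoring fibril collagen Col7a1 (19.5%), Col18a1 (19.7%) and Col27a1 (29.0%). These shares depend on the sort used as the scale. In the same order, the 5 genes averaged 0.197, 0.947, 0.323, 3.09 and 4.06 RPKM in EpCAM libraries. Their PDGFRA-HIGH means were 0.169, 291, 0.964, 38.0 and 23.6 RPKM, so Col4a5 stood far lower against PDGFRA-HIGH than against PDGFRA-MED cells. The source of the fibrillar reads in epithelial libraries was not tested.

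Within the E16.5 epithelium 4 collagen genes fell distally of 38 tested, against 3.96% of all genes, and none rose (1.92%). Of the 38, 5 reached an unadjusted p under 0.05 in either direction. Voom called Col8a1 higher, at 0.45, 0.54 and 0.41 RPKM in distal and 0.01, 0.03 and 0.07 RPKM in proximal libraries. Col18a1 had 1.01, 1.03 and 1.36 RPKM in distal and 6.32, 5.81 and 4.85 RPKM in proximal libraries (-1.91 ± 0.24, limma, adjusted p = 0.00017). Col4a5 (-1.28 ± 0.15; 0.479 ± 0.15 RPKM in distal and 1.86 ± 0.16 RPKM in proximal libraries), Col9a3 (-1.66 ± 0.29) and Col9a2 (-1.47 ± 0.18) fell too. Between mid and proximal libraries Col4a5 (-1.22 ± 0.15), Col9a2 (-1.39 ± 0.18) and Col9a3 (-1.68 ± 0.29) fell, 3 of 38 against 2.35% of all genes, and none was called between distal and mid ones by limma or voom (2.06%; 1 at an unadjusted p under 0.05). Col9a2 and Col9a3 encode chains of type IX, a partner of the cartilage collagen type II. Col2a1, the type II chain, was under the filter, with 0, 0.01 and 0 RPKM in distal and 1.05, 1.09 and 0.77 RPKM in proximal libraries. The pancreatic transcripts of the proximal libraries moved with these genes, with Ctrb1 (chymotrypsinogen) at 0.69, 0.17 and 0 RPKM in distal and 416, 880 and 399 RPKM in proximal EpCAM libraries. In the proximal vehicle library, which had no Cpa1 reads and 0.10 RPKM of Ctrb1, Col2a1 stood at 0.018, Col9a2 at 0.16, Col9a3 at 0.095 and Col18a1 at 3.21 RPKM, against 1.07 RPKM of Col18a1 in the distal vehicle library. The 3 proximal LGK974 libraries also had no Cpa1 reads, with Ctrb1 at 3.01, 4.90 and 8.51 RPKM, and held Col2a1 at 0.51, 0.41 and 0.22 RPKM and Col9a2 at 1.15, 1.23 and 0.69 RPKM, against at most 0.051 RPKM of Col2a1 and 0.077 RPKM of Col9a2 in distal LGK974 libraries. The part of pancreatic cells in the regional differences was not tested.

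At E13.5, 12 collagen genes could be tested, of which 2 rose and 2 fell in distal epithelium, against 1.4% and 0.762% of all genes. Col2a1 had 2.21, 1.63 and 0.68 RPKM in distal and 23.6, 8.52 and 4.81 RPKM in proximal libraries (-2.47 ± 0.23, limma, adjusted p = 0.011). Col9a3 had 0.57, 0.51 and 0.31 RPKM in distal and 4.54, 2.91 and 1.82 RPKM in proximal libraries (-1.84 ± 0.20, limma, adjusted p = 0.011). For both genes replicate 1 was highest and replicate 3 lowest in each region, and Cpa1 stood at 0 RPKM in the distal and at 60.9, 42.2 and 5.46 RPKM in the proximal libraries. Its part in these differences was not tested. Col3a1 had 10.5, 6.89 and 9.94 RPKM in distal and 3.76, 1.81 and 1.36 RPKM in proximal libraries (1.85 ± 0.22, limma, adjusted p = 0.032), while Col1a1 did not differ detectably (0.05 ± 0.20, limma, adjusted p = 1). The Col3a1 call was lost with voom. Fibroblast markers (3 of 8 in the table) summed to 62.3 to 111 RPKM in distal and 41.7 to 50.5 RPKM in proximal E13.5 libraries, and their part was not tested. Col4a2 rose by 1.08 ± 0.12 (18.3 ± 0.78 RPKM in distal and 8.58 ± 2.19 RPKM in proximal libraries, limma, adjusted p = 0.04). Its partner Col4a1 had 36.8 to 43.7 RPKM in distal and 24.0 to 27.6 RPKM in proximal libraries. Its difference of 0.67 ± 0.08 was not called. Of 13 alternatives, 7 lost the Col4a2 call and 4 each lost the Col2a1, Col3a1 and Col9a3 calls. Without the replicate block, 0 genes were called higher and 1 lower, Col9a3. Levels at E13.5 came from a table of its own, and the share of reads on collagen genes averaged 0.0757% in distal and 0.0682% in proximal libraries.

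LGK974 left most of the epithelial collagen genes that could be tested without a call. Not tested were Col2a1, Col4a6, Col6a5, Col6a6, Col7a1, Col8a1, Col9a1, Col9a3, Col11a1, Col12a1, Col15a1, Col17a1, Col20a1, Col22a1, Col23a1, Col24a1, Col25a1 and Col26a1. These did not pass the filter on low values. Of 18 tested, none was called in the proximal (2.18% of all genes in either direction; 0 collagen genes at an unadjusted p under 0.05 and 0 by voom) or the distal region (14.3%; 1 at an unadjusted p under 0.05 and 0 by voom). In the mid region 1 rose and none fell, against 7.31% of all genes in either direction. Col4a1 had 11.3, 10.1 and 9.77 RPKM in mid LGK974 libraries, against 4.97, 6.25 and 3.65 RPKM in untreated and 4.40 RPKM in vehicle libraries (1.06 ± 0.18, limma, adjusted p = 0.045). The call was lost when any 1 of these libraries other than untreated replicate 2 was left out, with differences of 0.95 to 1.10. In the distal region Col4a1 had 7.96, 8.99 and 7.70 RPKM in LGK974, against 3.21, 4.82 and 4.52 RPKM in untreated and 5.24 RPKM in vehicle libraries, which did not overlap (0.83 ± 0.18, limma, adjusted p = 0.23). Its partner Col4a2 overlapped in all 3 regions. No difference in the LGK974 effect between distal and proximal intestine was called for the 18 genes by limma (5.21% of all genes) or voom. Of these genes, 1 reached an unadjusted p under 0.05. The lowest adjusted p was that of Col4a1 (1.22 ± 0.26, limma interaction, adjusted p = 0.091). Its LGK974 difference was 0.83 in distal and -0.39 in proximal epithelium.

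**Figure D4:**
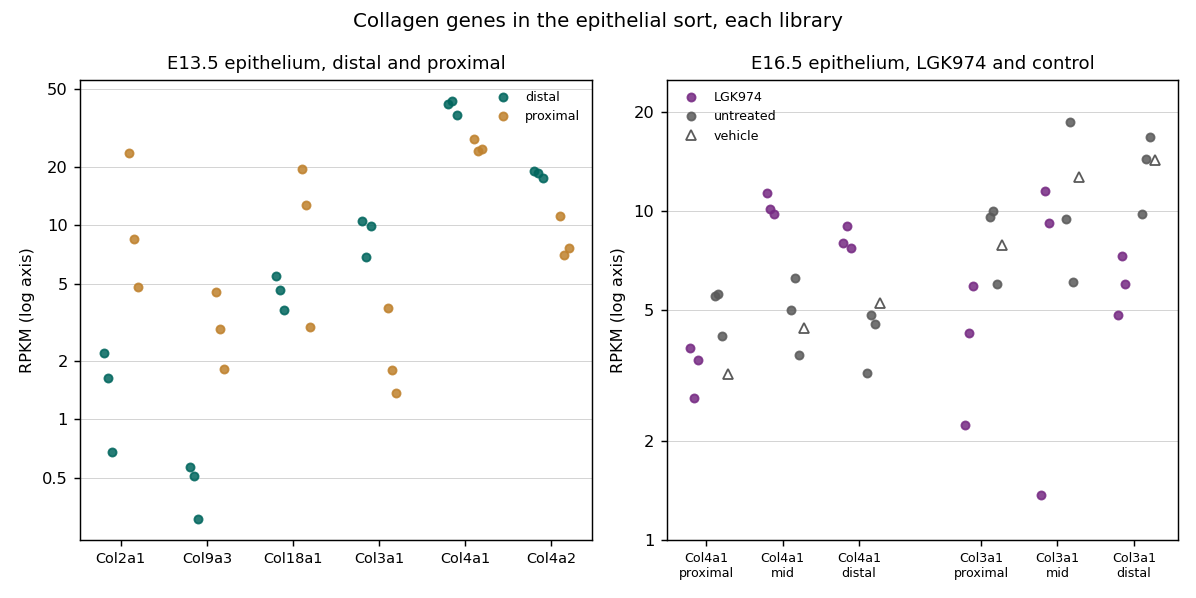
RPKM (log axis) in single epithelial libraries. Left, 6 collagen genes at E13.5 in distal and proximal intestine; right, Col4a1 and Col3a1 at E16.5 in LGK974, untreated and vehicle libraries by region, with Col4a1 in mid LGK974 libraries at 9.77 to 11.3 RPKM and in controls at 3.65 to 6.25 RPKM.

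The median difference over the 18 genes was -0.40 in proximal, -0.37 in mid and -0.77 in distal epithelium, against -0.01, -0.00 and 0.04 over all genes. In distal epithelium 14 of the 18 differences were below 0, of fibrillar, type VI and other chains alike, and 4 above 0, none of them called. In distal epithelium Col3a1 had 4.83, 7.26 and 5.97 RPKM in LGK974, against 9.75, 14.3 and 16.7 RPKM in untreated and 14.2 RPKM in vehicle libraries (-1.12 ± 0.49, limma, adjusted p = 0.51), and Col6a2 differed by -1.18 ± 0.41 (limma, adjusted p = 0.29). Col27a1, also fibrillar, differed by -0.30 in distal but by 0.59 in proximal epithelium. The fibroblast gene Dcn moved with Col3a1, at 0.44 to 0.54 RPKM in LGK974, against 0.99 to 2.0 RPKM in untreated and 1.70 RPKM in vehicle libraries, and its part was not tested. Col8a1, which was under the filter, had 0.021, 0.009 and 0.011 RPKM in distal LGK974, against 0.43, 0.52 and 0.40 RPKM in untreated and 0.43 RPKM in vehicle libraries. It was called when all genes were fitted without a filter (-0.88). The study itself lists Col8a1 among genes higher in distal epithelium and dependent on Wnt signalling. Among the collagen machinery, 13 modification and folding genes were tested. In mid epithelium P4hb (0.89 ± 0.11) and Serpinh1 (1.16 ± 0.19) rose and Creb3l1 fell by 3.41, against 7.31% of all genes. In distal epithelium P4hb (0.86 ± 0.11) rose and Creb3l1 fell by 2.57, a share near the 14.3% of all genes. The receptor Ddr1 fell in mid (-1.08 ± 0.11) and the inhibitor Timp2 in distal epithelium (-1.49 ± 0.21), against the same shares of all genes. The other receptors (Adgrg1, Itga2, Itgb1 and Antxr2) and breakdown genes (Mmp14, Mmp2 and Timp3) tested were not called in any region. The same held for all processing genes tested.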

How the data were processed

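RNA of sorted cells was sequenced in 54 libraries. The authors aligned reads to mm10, counted them per RefSeq gene strand-specifically with multi-mapping reads kept, and deposited RPKM made with edgeR, scaled within each of 4 tables. Comparisons therefore stayed within a table. For each table limma 3.58.1 (R 4.3.3) was fitted on log2(RPKM + 0.5) to genes with at least 1 RPKM in at least 3 libraries, with mean-variance trend, robust moderation, a test against a log2 difference of 0.5 and Benjamini-Hochberg adjustment over all genes tested. The replicate number, modelled by the study as the mother, was a block except in the inhibitor table, where treated and control dams differ. Deviations of same-numbered libraries correlated by 0.137 on average in the epithelium and PDGFRA table, 0.239 in the CD29-HIGH, 0.135 in the inhibitor and 0.2 in the E13.5 table. Recovered read counts were whole within 0.01 for 100% of deposited RPKM values, and voom on these reads was an alternative that called 18 collagen genes between PDGFRA-HIGH and PDGFRA-MED cells. The mean log2 expression that the authors deposited beside the RPKM was not used. The 9 PDGFRA-MED libraries are in 2 tables with the same reads. Called collagen genes were ranked by the size of the difference, up to 8 in each direction were described, with the partner chains of the same type, and the others were given by count and range; of the other pathway genes up to 6 in each direction were named. The genes, lists, tests and comparisons were chosen with earlier results of these data known, and Cpa1 and Ctrb1 were added after their values were seen. Tests were checked on simulated data that held no replicate effect and changed only genes with enough reads. The check therefore does not cover replicate effects or genes with few reads.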

Additional observations from a re-analysis of the deposited data

Results flagged for a closer look

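In 1 of 54 groups of 4 epithelial control libraries examined (18 collagen genes in 3 regions), 1 library stood apart from the others by Dixon's criterion: Col11a2 in the distal vehicle library had 1.38 RPKM, against 0.376, 0.415 and 0.466 RPKM in the distal untreated libraries. Chance gives about 1 such group in 20.

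The distal over proximal change differed between PDGFRA-HIGH and PDGFRA-MED cells for 8 genes by limma's interaction test. It was more negative in PDGFRA-HIGH cells for Col18a1 (-3.24 ± 0.33), Col13a1 (-1.86 ± 0.14), Col4a3 (-1.75 ± 0.26), Col4a4 (-1.68 ± 0.24) and Col24a1 (-1.34 ± 0.20), and more positive for Col15a1 (3.55 ± 0.61), Col6a6 (3.51 ± 0.38) and Col6a5 (2.69 ± 0.25). PDGFRA-MED libraries held at most 0.055 RPKM of Col4a3 and 0.14 RPKM of Col4a4, so their differences repeat the PDGFRA-HIGH fall. The Col15a1 difference also takes in lower distal than proximal values in PDGFRA-MED cells. Between CD29-HIGH and PDGFRA-MED cells the distal over proximal change differed for Col28a1 (-1.86 ± 0.26), Col6a3 (-1.12 ± 0.14) and Col23a1 (1.27 ± 0.14).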

How the results depend on the processing

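Of 3097 alternatives for 137 results on single collagen genes, 2970 kept the call, 127 lost it and 0 reversed its direction. Distal against proximal EpCAM gave 1 gene higher and 7 lower with a pseudocount of 0.1, 2 lower with a pseudocount of 1 and 1 higher with voom. Without the replicate block, 0 genes fell distally in CD29-HIGH cells, 0 rose and 1 fell at E13.5, and the CD29-HIGH minus PDGFRA-MED interaction gave 0 higher and 1 lower; with a replicate block in the inhibitor table no call changed. That interaction gave 1 lower with a pseudocount of 0.1 and with no filter, and 0 to 3 lower with 1 library left out. The PDGFRA-HIGH minus PDGFRA-MED interaction gave 3 lower with a pseudocount of 0.1, with voom and with only the compared groups fitted. For LGK974, mid gave 0 higher with a pseudocount of 1, with no filter and with quantile normalisation, distal gave 1 lower with no filter and 1 (Col3a1) with only the compared groups fitted, and the interaction gave 1 higher without the vehicle libraries. At E13.5 a pseudocount of 1 gave 1 higher and 1 lower, and no filter 1 higher. With 1 library left out, counts ran from 0 to 1 higher for mid LGK974, 0 to 1 higher for the LGK974 interaction, 0 to 2 higher and 1 to 2 lower at E13.5, 1 to 2 lower for distal CD29-HIGH, 2 to 3 higher for distal PDGFRA-HIGH and 0 to 1 higher for distal PDGFRA-MED (Col4a5, without proximal replicate 3). PDGFRA-HIGH against PDGFRA-MED ran from 7 to 10 higher and 7 to 8 lower. The cause of these changes was not tested. Epithelial levels near 1 RPKM limit what could be called there.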
